A study of Arabidopsis thaliana with 54 samples.

Results

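Zeitgeber times 8 and 12 (ZT08 and ZT12, in hours after dawn) both fall in the light in long days (LD, with a day of 16 h and a night of 8 h), so the afternoon change between them holds no light transition. It was read from 6 of the 54 libraries of the series, LD ZT12 replicates A, B and C and LD ZT08 replicates A, B and C. These were picked by their column names in the deposited gene count table, with the ERCC spike-ins (synthetic RNAs added to the sample) left out. All libraries were made from whole wild-type seedlings of Arabidopsis thaliana Col-0, with shoot, hypocotyl and root together. Every group was first raised for 10 days in equinox days (EQ, day and night of 12 h each) and then spent 2 days in its own photoperiod, with no mutation, drug or sugar in any group. The labels give the seedlings as 12 days old. Each replicate was a pool of seedlings from 1 plate, so the spread between replicates is a spread between plates. The same interval in the other photoperiods was used for comparison, again with 3 libraries per group. EQ seedlings were labelled as in light at ZT12 and at ZT08, whereas seedlings in short days (SD, day of 8 h and night of 16 h) were labelled as in dark at ZT12 and in light at ZT08.

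As background, photosynthetic light harvesting rests on the LHCA and LHCB antenna proteins, which bind chlorophyll around photosystem I and photosystem II and are encoded in the nucleus. Their transcripts are classic targets of both light and the circadian clock in leaves. The clock itself is a loop of repressors that act in turn through the day: the MYB factors CCA1 and LHY around dawn, the pseudo-response regulators PRR9, PRR7, PRR5, PRR3 and TOC1 from morning to evening, and the evening complex of ELF3, ELF4 and LUX at dusk. Day length is measured by comparing this clock with light, most famously through CONSTANS (CO), whose mRNA accumulates late in the day and whose protein activates the flowering gene FT in LD evenings.

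The 6 libraries held 3487226, 3982788 and 3988663 counts at ZT12 (replicates A, B and C), against 3434642, 4114579 and 3675457 counts at ZT08. Levels are given as CPM, counts scaled to a common library size, on 1 TMM scale (trimmed mean of M values, a correction for composition) over all 54 libraries. They are not divided by gene length, so they compare samples and not genes. Between 92.1% and 93.0% of the counts at ZT12, and between 93.8% and 94.0% at ZT08, lay on genes that another gene overlaps on the opposite strand. The alignment used a stranded setting, and no strand-keeping step is described for the library kit, so reads of a gene and of its opposite-strand partner cannot be told apart in this table. Opposite-strand partners are named below for the genes the results turn on, though not for every gene given only by its size. ZT12 replicate B stood somewhat apart. Its log2 CPM correlated with ZT12 replicates A and C at 0.941 and 0.945 over 6260 genes, against 0.957 between A and C. More genes reached 10 counts in the ZT12 libraries (9039, 8800 and 9532) than in the ZT08 libraries (7531, 8270 and 7796). In each of the 6 libraries, between 272 and 445 genes were listed at 0 though both other replicates held at least 10 counts. Root markers were present in every library, with a summed level of 2679 to 3255 CPM at ZT12 and 3597 to 4108 CPM at ZT08, most of it from PYK10. Their part in the results was not tested. In pools of whole seedlings, fewer cells of a type and less RNA per cell cannot be told apart.

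Over the LD afternoon the called genes were mostly lower at ZT12, and the antenna led them. Of 8592 genes tested with edgeR's quasi-likelihood test, 178 were called at a Benjamini-Hochberg adjusted p under 0.05 (2.07%). Of these, 65 were higher at ZT12 (0.757%) and 113 were lower (1.32%). Before adjustment, 1184 genes had p under 0.05. The ZT12 and ZT08 libraries did not overlap in 2072 of the 8592 genes, all 178 called genes among them. The median log2 fold change over all genes tested was 0.06, and over the 6260 tested genes with counts in all 6 libraries it was 0.01. Among genes with counts in all 6 libraries the called changes ran between 0.45 and 2.61 (log2) among 41 called higher, with a median of 0.92, and between -5.96 and -0.48 among 109 called lower, with a median of -1.3. A value after ± beside a log2 fold change is its standard error. The count of calls depended on which library was left out: it was 25, 186 and 31 without ZT12 replicate A, B or C, and 40, 64 and 73 without ZT08 replicate A, B or C. Leaving out any 1 library kept 16 of the 178 calls, and the highest adjusted p that any of the 178 then reached was 0.261. Of the 178, 9 kept their call in each of the 17 alternatives and leave-outs run on single genes. The split between directions depended on the scaling, at 36.5% higher with TMM, 81.8% with library totals, 50.3% with totals that omit the 10 most abundant genes and 46.7% with DESeq2.

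**Figure D1:**
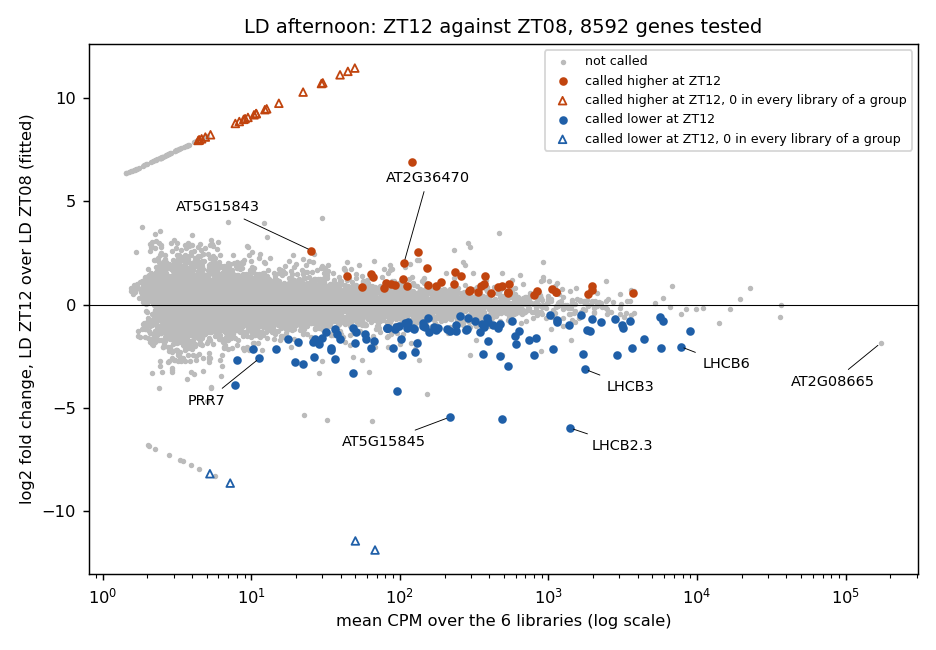
Mean level over the 6 libraries (CPM, log scale) against the fitted log2 fold change of LD ZT12 over LD ZT08 for the 8592 genes tested; coloured points are the 65 genes called higher and the 113 called lower, and triangles are called genes listed at 0 in every library of a group, whose fitted values are no measure of size. LHCB2.3 at -5.96 and LHCB3 at -3.13 are the lowest estimates among antenna genes with counts in all 6 libraries.

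Of the light-harvesting antenna, 6 genes fell, by up to about 6 log2 units. Of 20 antenna genes, 19 were tested, 6 were called lower and none higher, and 17 of the 19 estimates were negative. Their median log2 fold change was -2.03, against 0.06 over all genes tested. LHCB2.3, an isoform of the major LHCII trimer at chr3:10255906-10257489, had 43.4, 54.6 and 32.1 CPM at ZT12, against 2676, 2660.3 and 2896 CPM at ZT08. The groups were far apart, and the level at ZT12 was a small remnant of that at ZT08 (log2 fold change -5.96 ± 0.23, edgeR adjusted p = 0.000831). LHCB3, another LHCII trimer protein (chr5:22038165-22039568), had 317, 479 and 278 CPM at ZT12, against 3179, 3315 and 3010.5 CPM at ZT08 (-3.13 ± 0.21, edgeR adjusted p = 0.00371). LHCB6, the monomeric antenna protein CP24 at chr1:5446462-5447880, was the most abundant of the 6, with 2873, 3495 and 2662 CPM at ZT12, against 12656, 12557 and 12212 CPM at ZT08 (-2.03 ± 0.11, edgeR adjusted p = 0.00168). Each overlaps an opposite-strand gene that fell as well, and their reads cannot be told apart: the zinc-finger gene AT3G27700 beside LHCB2.3 (595 bp shared, -5.55 ± 0.16), the myosin gene ATM2 beside LHCB3 (186 bp, -2.98 ± 0.20) and the lncRNA AT1G05207 beside LHCB6 (358 bp, -2.08 ± 0.10). Summed over overlapping genes, these loci gave -5.86 ± 0.18, -3.11 ± 0.20 and -2.01 ± 0.10. All 6 of these genes kept their call in each of the 17 alternatives and leave-outs run on single genes.

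The 250 bases before the annotated start of these antenna genes are shown because the genes fell together. They are read 5′ to 3′ on the gene's own strand of TAIR10.1, with matches to the motifs searched in capitals. Motifs were searched on both strands, so a match can appear as the reverse complement of its letters. LHCB2.3 has 1 G-box (CACGTG, a site bound by bHLH and bZIP factors) that begins 88 bases before its start. LHCB6 has a G-box 124 bases before its start and an I-box (GATAAG, a motif known from light-regulated promoters) 86 bases before it. In LHCB3 none of the 6 motifs searched occurs in this window.
LHCB2.3 (chr3:10255656-10255905, plus strand): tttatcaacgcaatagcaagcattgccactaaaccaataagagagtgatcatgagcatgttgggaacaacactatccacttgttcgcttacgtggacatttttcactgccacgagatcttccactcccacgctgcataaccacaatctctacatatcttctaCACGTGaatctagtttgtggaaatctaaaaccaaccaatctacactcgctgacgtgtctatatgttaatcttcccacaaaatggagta
LHCB3 (chr5:22037915-22038164, plus strand): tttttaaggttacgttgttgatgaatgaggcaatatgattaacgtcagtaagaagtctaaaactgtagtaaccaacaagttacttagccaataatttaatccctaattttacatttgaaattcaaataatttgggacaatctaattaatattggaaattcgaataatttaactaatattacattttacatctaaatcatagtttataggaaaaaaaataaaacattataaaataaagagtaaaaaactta
LHCB6 (chr1:5447881-5448130, minus strand): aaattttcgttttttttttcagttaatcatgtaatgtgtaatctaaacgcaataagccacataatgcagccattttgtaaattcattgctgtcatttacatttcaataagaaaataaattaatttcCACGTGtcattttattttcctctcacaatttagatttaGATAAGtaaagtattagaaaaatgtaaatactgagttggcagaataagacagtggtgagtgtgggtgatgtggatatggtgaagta

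Of 6 genes for the antenna of photosystem I, 3 fell. LHCA4 had 23.2, 44.5 and 27.5 CPM at ZT12, against 175, 176 and 178 CPM at ZT08 (-2.46 ± 0.26, edgeR adjusted p = 0.0132), LHCA1 had 39.9, 75.4 and 51.2 CPM at ZT12, against 208, 215 and 195 CPM at ZT08 (-1.88 ± 0.24, edgeR adjusted p = 0.0231) and LHCA3 had 53.3, 60.8 and 42.5 CPM at ZT12, against 114, 104 and 126 CPM at ZT08 (-1.12 ± 0.18, edgeR adjusted p = 0.0405). LHCA2, LHCA5 and LHCA6 had estimates of -0.89, -0.32 and 0.59 and did not pass (edgeR adjusted p = 0.083, 0.362 and 0.928). Together with these, 13 tested antenna genes did not pass. LHCB1.1, an LHCII gene, had 22.6, 69.6 and 16.4 CPM at ZT12, against 247, 276 and 180 CPM at ZT08 (-2.69 ± 0.58, edgeR adjusted p = 0.0936), with ZT12 replicate B the highest of its group. LHCB2.1 had 2.93, 4.80 and 0 CPM at ZT12, against 118, 135 and 128 CPM at ZT08, and LHCB5, the monomeric antenna protein CP26, had 14.4, 28.8 and 19.4 CPM at ZT12, against 55.95, 68.8 and 61.5 CPM at ZT08 (edgeR adjusted p = 0.0753 and 0.0578). Without ZT12 replicate B, 11 antenna genes were called lower, against 3 to 4 when any other library was left out.

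The most abundant feature of the whole comparison also belongs to the antenna by position. AT2G08665, an annotated gene at chr2:14522522-14523568, lies over LHCB1.5 (AT2G34420) on the opposite strand with 1045 bp in common. It took 5.44%, 11.2% and 5.71% of all counts in ZT12 replicates A, B and C, against 21.5%, 21.3% and 21.8% in the ZT08 replicates. Its level in ZT12 replicate B was thus more than that of either other ZT12 library, though still below all ZT08 libraries, and its change did not pass (-1.86 ± 0.34, edgeR adjusted p = 0.0624). LHCB1.5 itself was listed at 3499.6, 264 and 117 CPM at ZT12, against 541, 526 and 538 CPM at ZT08, where replicate A stood out. Summed over both strands, the locus passed with -1.85 ± 0.30 (edgeR adjusted p = 0.0302). Because this feature took such a large share, other genes' CPM depend on the correction for composition, which is why the split by scaling is given above.

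Of the 12 photosystem I genes 8 fell, and of the 12 chlorophyll synthesis genes tested 3 did. Both lists were drawn up after values had been seen, so their counts are descriptive. All 12 photosystem I subunit genes had negative estimates, with a median of -0.94. With library totals as the scale all 12 stayed negative (median -0.59), and 3 were called. PSAE-1, a stromal subunit near the ferredoxin docking site, had 4172, 5122 and 6203 CPM at ZT12, against 12420, 11387 and 14253 CPM at ZT08 (-1.27 ± 0.17, edgeR adjusted p = 0.0267). PSAH2, which takes part in docking of mobile LHCII, had 1064, 1237 and 916 CPM at ZT12, against 2562, 2672 and 2459 CPM at ZT08 (-1.24 ± 0.12, edgeR adjusted p = 0.00991), and its partner ROPGEF11 fell alike (-1.25 ± 0.11, 174 bp shared). In 1 fit of all LD libraries PSAH2 did not pass (edgeR adjusted p = 0.99). PSAD-2, the counterpart of PSAE-1 in ferredoxin docking, had 12.8, 15.2 and 11.1 CPM at ZT12, against 61.8, 47.2 and 58.05 CPM at ZT08 (-2.07 ± 0.21). PSAF, on the side where plastocyanin docks, PSAN, PSAO, PSAG and PSAH-1 fell by 1.12, 1.3, 1.11, 0.60 and 0.71 on the log2 scale. ROPGEF13, which overlaps PSAH-1 by 788 bp, changed by -0.77 ± 0.09. Across from PSAG lies AT1G55673, among the 5 most abundant features, which had 27643, 33021 and 25340 CPM at ZT12, against 44074, 43647 and 44223 CPM at ZT08 and did not pass (-0.60 ± 0.10, edgeR adjusted p = 0.0511), while the locus summed over both strands did (-0.61 ± 0.09, edgeR adjusted p = 0.022).

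The 3 called lower, of 14 chlorophyll synthesis genes in the list, each act at the magnesium branch of the pathway. CRD1, the oxidative cyclase that forms the fifth ring, had 1179.9, 1634 and 1232 CPM at ZT12, against 5815, 6369 and 5519 CPM at ZT08 (-2.11 ± 0.14, edgeR adjusted p = 0.00371). GUN5, the H subunit of magnesium chelatase, had 27.2, 36.5 and 26.3 CPM at ZT12, against 95.8, 109.7 and 108 CPM at ZT08 (-1.78 ± 0.18, edgeR adjusted p = 0.0113). GUN4, the activator of that chelatase, had 24.2, 13.1 and 19.4 CPM at ZT12, against 60.7, 67.3 and 53.9 CPM at ZT08 (-1.65 ± 0.28, edgeR adjusted p = 0.0492). GUN4 shares 946 bp with the eIF2 kinase gene GCN2, which held far more of the counts at that locus and had 1005, 652 and 1002 CPM at ZT12, against 4978, 4976 and 4835 CPM at ZT08 (-2.45 ± 0.20). CRD1 likewise fell together with its opposite-strand lncRNA AT3G08795 (-2.44 ± 0.29). With library totals as the scale, the median of the chlorophyll list was 0.04 in place of -0.30, and 2 members were called.

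Further chloroplast genes were on the lower side. AT1G51400, annotated as a photosystem II 5 kD protein, had 317, 321 and 286 CPM at ZT12, against 892, 883 and 899 CPM at ZT08 (-1.51 ± 0.08, edgeR adjusted p = 0.00182). HCF173, needed for translation of the D1 protein of photosystem II, and TLP18.3, a lumen protein of photosystem II repair, fell by 0.92 and 0.72 (log2). The locus of HCF173, in which it overlaps AT1G05253, fell by 1.01 ± 0.10 when summed. ABA1, the zeaxanthin epoxidase of the xanthophyll cycle and of abscisic acid synthesis, had 5.86, 5.60 and 4.61 CPM at ZT12, against 25.97, 17.97 and 27.8 CPM at ZT08 (-2.13 ± 0.27). Rubisco activase (RCA) was the only gene called of the 16 in the Rubisco and Calvin cycle list, with 213, 247 and 196 CPM at ZT12, against 358, 362 and 335 CPM at ZT08 (-0.67 ± 0.11, edgeR adjusted p = 0.0466). That list was otherwise even, with a median of 0.02. It held no ribose-5-phosphate isomerase gene, and those that were called are given below among the higher genes. Not counting AT1G05253, 20 called genes of photosystem I, chlorophyll synthesis and the chloroplast are named here, other partners included. Of these 20, 3 (GCN2, CRD1 and AT1G51400) kept their call whichever library was left out. Of the same 20, 1 kept its call in each of the 17 alternatives and leave-outs run on single genes. Calls were lost most often without ZT12 replicate A or ZT08 replicate A (17 of 20 each), with adjusted p up to 0.231.

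**Figure D2:**
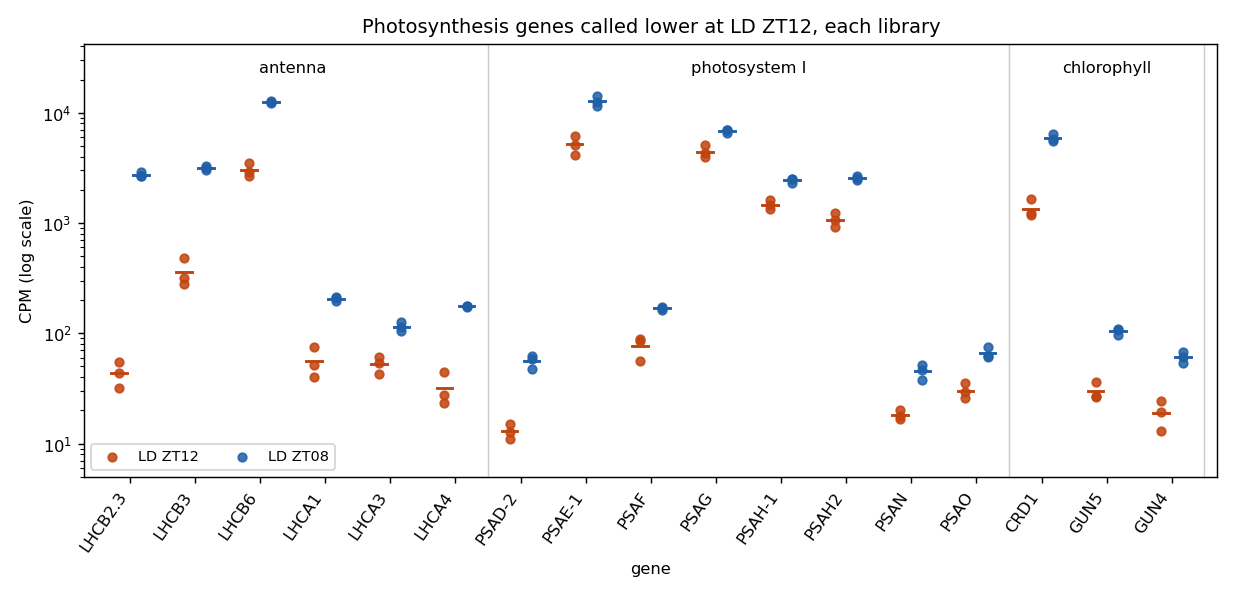
Level of each antenna, photosystem I and chlorophyll synthesis gene called lower (CPM, log scale), with a point per library and a bar at the group mean, LD ZT12 left of LD ZT08 (n = 3 each). The ZT12 points lie below the ZT08 points in every gene, by the widest gap in LHCB2.3 (32.1 to 54.6 CPM, against 2660 to 2896 CPM).

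Among clock genes the pseudo-response regulators changed in opposite directions, but their counts were low and their calls depended on the fit. PRR7 had 3.46, 3.73 and 2.31 CPM at ZT12, against 25.2, 15.8 and 17.5 CPM at ZT08, and fell (-2.59 ± 0.33, edgeR adjusted p = 0.0235). PRR5 had 0, 0 and 0 CPM at ZT12, against 13.2, 9.14 and 9.27 CPM at ZT08, at least 41.1-fold lower at ZT12 if the floor of 3 counts over the group is used, and passed (edgeR adjusted p = 0.0376). PRR3, which acts with TOC1 in the evening, went the other way with 7.19, 8.53 and 10.8 CPM at ZT12, against 0, 0 and 0 CPM at ZT08, at least 26.6-fold higher by the same floor (edgeR adjusted p = 0.0487). None of the 3 has an opposite-strand partner. They were listed at 0 in 32 (PRR7), 35 (PRR5) and 45 (PRR3) of the 54 libraries, and the reason was not tested. Because genes at 0 in 1 library could hold counts in its replicates, both bounds describe the listed counts only. Over the alternatives and leave-outs, PRR7 kept its call in 6 of 16, PRR5 in 6 of 15 and PRR3 in 4 of 15. In 1 fit of all LD libraries PRR7 and PRR5 did not pass (edgeR adjusted p = 0.0954 and 0.259). Of 14 evening clock genes, 11 were tested, PRR3 was called higher and PRR5 lower. Of 13 morning clock genes, 2 were tested and PRR7 was called. TOC1 had 5.06, 17.3 and 5.77 CPM at ZT12, against 0, 6.40 and 9.96 CPM at ZT08, ELF4 had 9.05, 14.7 and 6.23 CPM at ZT12, against 12.4, 2.74 and 10.3 CPM at ZT08, and ELF3 had 198, 166 and 205 CPM at ZT12, against 127, 126 and 147 CPM at ZT08 (edgeR adjusted p = 0.900, 0.937 and 0.154), with TOC1 and ELF4 overlapping between the times. The dawn genes were at the floor, as CCA1 had 0, 0 and 0 CPM at ZT12, against 1.46, 0 and 2.06 CPM at ZT08.

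GRP7, a clock-controlled RNA-binding protein gene that oscillates downstream of the core loop, rose (116, 130.1 and 120 CPM at ZT12, against 64.7, 58.2 and 67.3 CPM at ZT08, 0.96 ± 0.13, edgeR adjusted p = 0.0253). In 1 fit of all LD libraries GRP7 did not pass (edgeR adjusted p = 0.967). LNK2, a co-activator of the clock, could not be read gene by gene. It was listed at 0, 43.2 and 0 CPM at ZT12, against 258, 311 and 299.5 CPM at ZT08, while the lncRNA AT3G08405 on its opposite strand fell (5.59, 14.1 and 6.46 CPM at ZT12, against 77.9, 101 and 84.2 CPM at ZT08, -3.31 ± 0.40, edgeR adjusted p = 0.019). The summed locus had 5.59, 57.3 and 6.46 CPM at ZT12, against 336.1, 411.9 and 383.7 CPM at ZT08 (edgeR adjusted p = 0.0729). Here too ZT12 replicate B was the high one of its group. STH, a B-box factor of light signalling, fell as well (3.73, 3.73 and 3.69 CPM at ZT12, against 12.4, 21.9 and 15.8 CPM at ZT08, -2.14 ± 0.31), and so did AT1G06045 opposite the B-box gene STO (283, 429.7 and 326 CPM at ZT12, against 1218, 1177 and 1004 CPM at ZT08, -1.69 ± 0.17). Of the 7 clock-related calls, none held in all 6 leave-outs. All 7 were lost without ZT12 replicate A, ZT12 replicate C, ZT08 replicate A or ZT08 replicate B, 6 without ZT08 replicate C and 3 without ZT12 replicate B, with adjusted p up to 0.237.

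The windows before the starts of PRR5, PRR7 and GRP7 are shown for the motifs they hold. GRP7 has 3 evening elements (AAAATATCT, a target of the CCA1 and LHY family), which begin 76, 55 and 31 bases before its start, and 2 site II elements (TGGGCC) at 208 and 151 bases. PRR5 has 1 evening element at 187 bases and 1 CCA1-binding site (AAAAATCT) at 198 bases. PRR7 has a G-box at 201 bases. Capitals again mark the matches, read on the gene's strand of TAIR10.1.
GRP7 (chr2:9266558-9266807, minus strand): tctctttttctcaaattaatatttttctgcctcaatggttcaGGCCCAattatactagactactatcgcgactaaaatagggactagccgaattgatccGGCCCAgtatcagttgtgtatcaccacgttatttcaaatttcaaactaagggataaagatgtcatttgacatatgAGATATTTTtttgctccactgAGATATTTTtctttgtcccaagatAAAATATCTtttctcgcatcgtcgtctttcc
PRR5 (chr5:8358547-8358796, minus strand): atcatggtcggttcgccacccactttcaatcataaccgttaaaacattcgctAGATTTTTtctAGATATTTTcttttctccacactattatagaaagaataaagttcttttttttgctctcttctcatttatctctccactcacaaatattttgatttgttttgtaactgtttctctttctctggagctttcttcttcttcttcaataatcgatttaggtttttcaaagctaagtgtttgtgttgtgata
PRR7 (chr5:642031-642280, minus strand): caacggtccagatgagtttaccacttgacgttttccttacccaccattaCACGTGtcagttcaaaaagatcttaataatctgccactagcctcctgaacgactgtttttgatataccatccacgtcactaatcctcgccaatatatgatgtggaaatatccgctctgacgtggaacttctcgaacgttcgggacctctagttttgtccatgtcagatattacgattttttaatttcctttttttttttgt

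**Figure D3:**
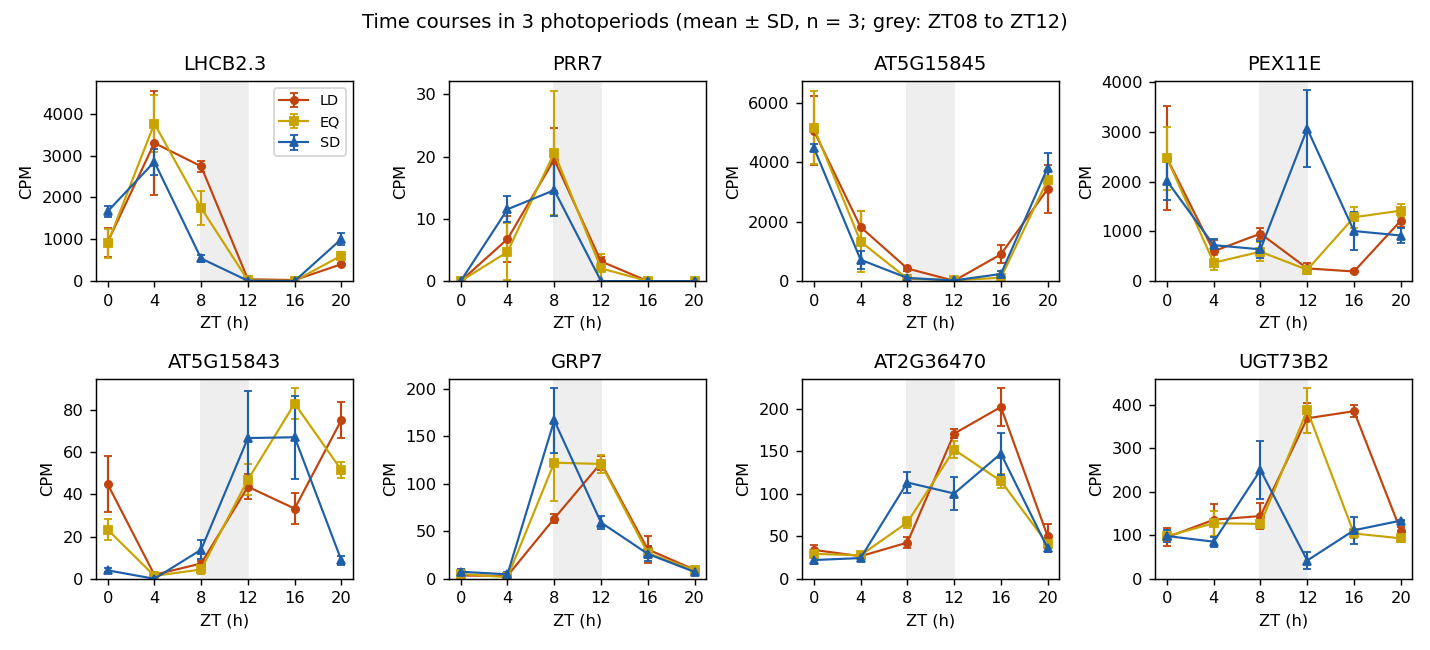
Level through the day (CPM, mean ± standard deviation, n = 3 at each time) of 8 genes in LD, EQ and SD, with ZT in hours on the horizontal axis and the interval from ZT08 to ZT12 shaded. LHCB2.3 and PRR7 are low at ZT12 in all 3 photoperiods, whereas GRP7 at ZT12 averaged 122 CPM in LD against 59.2 CPM in SD.

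Levels at other times of day place the afternoon change of single genes. In LD, LHCB2.3 averaged 3302 ± 1253 CPM at ZT04 and 2744 ± 132 CPM at ZT08, then 43.4 ± 11.3 CPM at ZT12 and 24.7 ± 6.24 CPM at ZT16 (mean ± standard deviation, n = 3 each). At ZT12 the same gene stood at 19.9 ± 1.03 CPM in EQ and 8.13 ± 3.44 CPM in SD, against 1747 ± 398 CPM in EQ and 541 ± 86.4 CPM in SD at ZT08. PRR7 was highest at ZT08 in LD (19.5 ± 5.01 CPM), with 6.76 ± 3.68 CPM at ZT04 and no count at ZT00, ZT16 or ZT20. GRP7 in LD was highest at ZT12, at 122 ± 7.44 CPM, and had 30.9 ± 13.9 CPM at ZT16. In SD its highest mean was at ZT08 (167 ± 33.8 CPM), and in EQ it stood at 121 ± 9.51 CPM at ZT12 and 122 ± 40.5 CPM at ZT08. AT2G36470 and UGT73B2 went on to 202 ± 22.8 and 386 ± 13.2 CPM at ZT16 in LD, and UGT73B2 had 104 ± 11.3 CPM at ZT16 in EQ, after its night had begun. These levels at other times are given with no test.

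For photoperiodic flowering, the clearest rise was at the CO locus. AT5G15843, annotated on the strand opposite CO (AT5G15840) with 1967 bp in common, had 48.5, 37.1 and 45.2 CPM at ZT12, against 8.41, 6.40 and 6.87 CPM at ZT08. It rose the most of all called genes with counts in all 6 libraries (2.61 ± 0.23, edgeR adjusted p = 0.0088). CO itself had 40.7, 37.9 and 57.9 CPM at ZT12, against 24.1, 22.2 and 23.7 CPM at ZT08, groups that did not overlap but a change that did not pass (0.99 ± 0.23, edgeR adjusted p = 0.109). Summed over both strands, the CO locus had 89.2, 74.9 and 103.1 CPM at ZT12, against 32.5, 28.6 and 30.6 CPM at ZT08, and passed (1.55 ± 0.19, edgeR adjusted p = 0.0109). Next to CO on the chromosome, AT5G15845, which overlaps the CO relative COL1 on the opposite strand, had 4.26, 17.3 and 7.38 CPM at ZT12, against 518, 429 and 324 CPM at ZT08 (-5.44 ± 0.58, edgeR adjusted p = 0.014). COL1 itself had an estimate of -0.21 ± 0.26 (edgeR adjusted p = 0.873). The summed locus of 4 genes fell by 1.18 ± 0.21 on the log2 scale (edgeR adjusted p = 0.0345).

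TEM2, a repressor of FT, was the only one of 19 flowering genes (11 tested) called, with 15.98, 22.4 and 22.6 CPM at ZT12, against 62.2, 47.8 and 55.99 CPM at ZT08 (-1.42 ± 0.22, edgeR adjusted p = 0.0385). NF-YB2, a subunit of the NF-Y complex that works with CO, rose (191, 231 and 189.9 CPM at ZT12, against 108, 105 and 104 CPM at ZT08, 0.97 ± 0.12), together with its opposite-strand lncRNA AT5G07015 (0.87 ± 0.09). CDF5, one of the DOF repressors of CO, had 107, 119 and 76.6 CPM at ZT12, against 183, 178 and 189.6 CPM at ZT08, and did not pass (edgeR adjusted p = 0.0921), while its opposite-strand lncRNA AT1G69572 fell (22.1, 28.3 and 32.99 CPM at ZT12, against 91.1, 87.4 and 91.4 CPM at ZT08, -1.67 ± 0.19). The CDF5 locus summed over both strands fell by 1.08 ± 0.14 (edgeR adjusted p = 0.0123). FT had no count in any of these 6 libraries, which at this depth does not show that it was absent. Of the 6 calls in this group, all were lost without ZT12 replicate A or C, 5 without ZT08 replicate A or B, 3 without ZT08 replicate C and 1 without ZT12 replicate B, with adjusted p up to 0.155.

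On the higher side, genes of protein synthesis and folding had mostly positive estimates of small size. The ribosomal protein set was drawn up after values had been seen, from product names and across all compartments, so it too is descriptive. Of 361 such genes in the table, 175 were tested, 160 had a positive estimate, 4 were called higher and none lower. Their median log2 fold change was 0.57, against 0.06 over all genes tested. Among the 107 with counts in all 6 libraries it was 0.46, against 0.01 over all such genes. Their summed level was 18518, 19401 and 19037 CPM at ZT12, against 14061, 15388 and 14292 CPM at ZT08, without overlap. The 4 called were PGY2 and its near-identical neighbour AT1G33120 (ribosomal protein L6 family, 0.63 ± 0.08 and 0.63 ± 0.08, between which reads may be split), AT4G36130 (L2 family, 0.91 ± 0.14) and AT4G26230 (L31e family, 0.59 ± 0.09). With library totals, 17 members were called higher, and the median was 0.93 against 0.42 over all genes. A change of scale shifts all genes by about the same amount, so it cannot test the distance between the set and all genes. Of 10 ribosome biogenesis genes, 7 were tested, all with positive estimates (median 1.24) and none called. NOP56, a box C/D snoRNP core protein, had 35.9, 27.99 and 47.3 CPM at ZT12, against 12.8, 19.5 and 16.1 CPM at ZT08 (edgeR adjusted p = 0.114).

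BIP1, an HSP70 chaperone of the endoplasmic reticulum, had 59.9, 63.2 and 67.6 CPM at ZT12, against 25.2, 20.1 and 29.9 CPM at ZT08, and was the member of 6 tested heat and folding genes that rose (1.36 ± 0.20, edgeR adjusted p = 0.0369). Its paralog BIP2 had 45.8, 34.1 and 41.5 CPM at ZT12, against 25.2, 14.9 and 18.2 CPM at ZT08, and did not pass (edgeR adjusted p = 0.125). Because the copies are nearly identical, reads may be split between them. The DNAJ co-chaperone gene J2 rose by 0.82. In sugar metabolism both ribose-5-phosphate isomerases that were called rose: RPI2 had 113, 105 and 125 CPM at ZT12, against 62.9, 56.7 and 57.7 CPM at ZT08 (0.98 ± 0.14), and EMB3119 had 1051, 1042 and 984 CPM at ZT12, against 681, 647 and 633 CPM at ZT08 (0.67 ± 0.08). MTO3, an S-adenosylmethionine synthetase, rose by 0.53 ± 0.08. Each of these 3 overlaps an lncRNA on the opposite strand: AT3G01505 across from EMB3119 held more counts and rose too (2523, 2368 and 2374 CPM at ZT12, against 1564, 1518 and 1429.9 CPM at ZT08, 0.71 ± 0.08), and the summed loci of EMB3119, RPI2 (with AT2G03925 and MEE65) and MTO3 (with AT3G03475) rose by 0.69 ± 0.08, 0.85 ± 0.12 and 0.53 ± 0.08. Of the glycosyltransferases, UGT73B2, which acts on flavonoids, had 387, 329 and 392 CPM at ZT12, against 176, 139.5 and 118 CPM at ZT08 (1.38 ± 0.18, edgeR adjusted p = 0.0251), and UGT71B1 had 269, 219 and 282 CPM at ZT12, against 135, 107 and 127 CPM at ZT08 (1.09 ± 0.16). None of these 11 calls of ribosomal, folding and metabolic genes held in every leave-out. All 11 were lost without ZT12 replicate A, ZT12 replicate C or any ZT08 replicate, and 3 without ZT12 replicate B, with adjusted p up to 0.187.

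The other higher genes with large changes and counts in all 6 libraries had mixed or no annotated roles. AT2G36470, a DUF868 gene with no opposite-strand partner, had 171, 176 and 165 CPM at ZT12, against 44.3, 35.3 and 48.1 CPM at ZT08, and its call (2.02 ± 0.16, edgeR adjusted p = 0.00639) held without any 1 library. The lncRNA AT5G08275 had 306, 179 and 195 CPM at ZT12, against 39.9, 37.2 and 42.2 CPM at ZT08 (2.54 ± 0.25), and AT5G58570 had 204, 294 and 205 CPM at ZT12, against 66.6, 73.7 and 66.3 CPM at ZT08 (1.78 ± 0.17). CWLP, a cell wall linker protein, had 417, 374 and 252 CPM at ZT12, against 119.6, 124 and 116 CPM at ZT08 (1.56 ± 0.20). Its opposite-strand partner AT3G22121, among the 5 most abundant features, had 32068, 29772 and 24698 CPM at ZT12, against 16924, 18890 and 13902 CPM at ZT08 (0.82 ± 0.15, edgeR adjusted p = 0.0617), and the summed locus passed at 0.81 ± 0.14. LECRKA4.1 (a lectin receptor kinase), OEP6 (an outer envelope protein), FOLK (farnesol kinase) and the lncRNAs AT4G38215 and AT2G41178 rose by 1.35, 1.25, 1.04, 1.48 and 1.37. Of these 9, between 4 (without ZT12 replicate B) and 8 (without ZT08 replicate A) lost their call when 1 library was left out, with adjusted p up to 0.169.

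Beyond photosynthesis, genes of several roles were lower. SCRL22, a small secreted cysteine-rich protein gene, had 9.59, 10.1 and 9.69 CPM at ZT12, against 178, 149.6 and 219 CPM at ZT08 (-4.19 ± 0.20, edgeR adjusted p = 0.00131). AILP1, an aluminium-induced protein gene, had 388, 372 and 418 CPM at ZT12, against 1806, 1620.3 and 1866 CPM at ZT08 (-2.14 ± 0.10, edgeR adjusted p = 0.00131), and the gene across from it, AT5G19150, fell alike (-2.11 ± 0.22). AT5G16030 had 140.3, 131 and 146 CPM at ZT12, against 868, 746 and 798 CPM at ZT08 (-2.50 ± 0.11). These levels did not overlap between the times, and the calls of SCRL22, AILP1 and AT5G16030 held without any 1 library. PEX11E, a peroxisome proliferation factor, had 181, 379 and 207 CPM at ZT12, against 930, 857 and 1079 CPM at ZT08 (-1.89 ± 0.29, edgeR adjusted p = 0.039), and its partner PP2-A13 had 0, 0 and 0 CPM at ZT12, against 242, 208 and 0 CPM at ZT08. The hexose transporter gene MSS1 (also STP13), the immunity gene PAD4, the gibberellin-regulated GASA6 and ABF1, a bZIP factor of abscisic acid signalling, fell by 1.78, 1.27, 1.34 and 1.07. GASA6 overlaps AT1G74675 on the opposite strand, and that locus fell by 1.35 ± 0.11 when summed. The ARM-repeat gene AT4G36550 fell by 2.88, the cytochrome P450 gene CYP709B3 by 2.76, the carbohydrate kinase gene AT1G06730 by 2.51 and AT1G15825 by 2.65. Of these 13 genes, between 3 (without ZT12 replicate B) and 10 (without ZT12 replicate C or ZT08 replicate A) lost the call, with adjusted p up to 0.203.

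In 27 of the 178 called genes every library of a group was listed at 0, 23 of them at ZT08 and 4 at ZT12. That is 15.2% of the called genes, against 1.04% of all genes tested. The fold bounds below take a listed 0 at face value, though genes at 0 in 1 library could hold counts in its replicates. ABCC8, a transporter of the ABCC type, had 74.8, 106 and 86.99 CPM at ZT12, against 0, 0 and 0 CPM at ZT08, at least 265-fold higher by the floor of 3 counts. NRP1, a histone chaperone gene, had 80.2, 63.4 and 93.7 CPM at ZT12, against 0, 0 and 0 CPM at ZT08 (at least 238-fold higher), and AT2G43235 had 80.4, 98.9 and 119 CPM at ZT12, against 0, 0 and 0 CPM at ZT08 (at least 299-fold higher). In the other direction AT3G59110, a protein kinase gene, had 0, 0 and 0 CPM at ZT12, against 146, 113 and 149 CPM at ZT08 (at least 532-fold lower). AT4G33467, opposite SCRL22, had 0, 0 and 0 CPM at ZT12, against 111, 76.5 and 114 CPM at ZT08 (at least 391-fold lower). Further genes at 0 in all ZT08 libraries were AT3G60910 (58.3, 59.4 and 63.9 CPM at ZT12), AT5G48590 (58.1, 63.97 and 55.8), AT1G28540 (32.2, 59.2 and 42.5), FRI (27.2, 38.9 and 25.8), UCH1 (19.7, 26.7 and 29.8), AT1G56290 (27.2, 27.7 and 19.2), AtIPCS3 (22.6, 14.4 and 27.7), AT5G53310 (22.9, 20.5 and 21.2), AT3G23550 (17.8, 30.7 and 14.1) and UNE5 (17.3, 20.3 and 12.2). With PRR3 given above, the remaining 9 were AT2G19540, AT4G23620, EMB2083, DDI1, AXS1, AT5G61360, AT1G29320, ATAF1 and AT1G62850, with bounds between 25.9-fold and 56.3-fold higher. SLP1 was at 0 at ZT12 (at least 56.6-fold lower). Most of these genes share their span with an opposite-strand gene. Summed over such spans, ABCC8 with its partner had 166.2, 206.1 and 185.1 CPM at ZT12, against 95.8, 116.7 and 81.4 CPM at ZT08, which is 0.93 ± 0.17 on the log2 scale. AT5G48590 with its partner FKBP15-2 had 244.2, 271.1 and 222.4 CPM at ZT12, against 247.2, 218.7 and 254.5 CPM at ZT08, with overlapping groups (edgeR adjusted p = 0.948). In such loci a change of the gene and a change in how reads were assigned between strands cannot be told apart. Without 1 library, between 12 (ZT08 replicate C) and 25 (ZT12 replicate C) of the 27 lost the call.

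An opposite-strand gene was present for 80.9% of the called genes, against 55.2% of the genes tested. Where the partner was called as well, it moved the same way in 55 of 55 cases, where a shared change and shared reads cannot be told apart. These cases are counted from each gene, so a pair can enter from both sides. Over all genes tested, a called partner had the same sign for 113 genes and the opposite sign for 19. When counts were summed over all genes that overlap by at least 100 bp on opposite strands, 6943 loci were tested, 61 were called higher and 106 lower. In loci of several genes, 98 of the 111 called genes with counts in all 6 libraries lay in a called locus, against 8 of the 17 called genes at 0 in a group. In a locus of a single gene the locus is the gene, so those are not counted.

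To place the LD afternoon among the photoperiods, the same interval was measured in EQ seedlings, which were labelled as in light at both times too. In EQ, however, ZT12 is the end of the day of 12 h, whereas the LD day goes on. In the fit of the 12 LD and EQ libraries, 8 of 10490 genes differed in their change (0.0763%), with 7 more positive in LD (0.0667%) and 1 more negative (0.00953%). In EQ alone 183 genes were called (1.74%). Of the 113 genes called lower in LD, 111 were also negative in EQ, 62 were called lower there and none higher, and the median EQ change was -1.23. Of the 65 called higher in LD, 54 were positive in EQ, 24 were called higher and none lower, with a median of 0.55. Over all genes tested in LD, 5439 of 8559 had the same sign in both. LHCB2.3 changed by -5.96 in LD and -6.44 in EQ, LHCB3 by -3.13 in LD and -3.78 in EQ, and LHCB6 by -2.03 in LD and -2.25 in EQ, with differences of 0.48, 0.66 and 0.22 that did not pass (lowest edgeR adjusted p = 0.967). Of the 8 genes that differed, ABCC8, NRP1, UNE5 and AT1G76700 were each listed at 0 in a whole group of 3 libraries. ABCC8 had a mean of 89.3 CPM at ZT12 and 0 at ZT08 in LD, and 70.7 CPM at ZT12 and 45.4 at ZT08 in EQ. The difference test missed the threshold for most genes, which does not show that the 2 photoperiods act alike. GRP7, for example, had a change of 0.96 in LD and of 0.00 in EQ, with an edgeR adjusted p of 0.898 for the difference.

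In SD the same interval crosses from light into dark, and the changes differed more often. The LD libraries are shared with the EQ comparison, so the counts are not independent of each other. In the fit of the 12 LD and SD libraries, 668 of 10512 genes differed in their change (6.35%), with 383 more positive in LD (3.64%) and 285 more negative (2.71%). In SD alone 1235 genes were called (11.7%). Of the 113 genes called lower in LD, 97 were negative in SD and 70 were called lower there, with 8 called higher. The difference was called in 35 of the 113, with 14 more positive and 21 more negative in LD. Over all genes tested in LD, 4436 of 8563 had the same sign in LD and SD. Of the 65 called higher in LD, 24 were positive in SD, 7 were called higher and 15 were called lower. The difference was called in 36 of the 65, all more positive in LD. These genes were chosen by their LD change, which enters that difference, so this share describes them and is no test of them as a set.

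Named genes differed in both directions. UGT73B2 rose in LD but had 42.02 ± 18.8 CPM at ZT12 and 250.2 ± 66.2 CPM at ZT08 in SD (mean ± standard deviation, n = 3), a difference in change of 3.91 ± 0.45 (edgeR adjusted p = 0.000856). BIP1 changed by -1.72 in SD (difference 3.09 ± 0.33, edgeR adjusted p = 0.000601), and GRP7 by -1.45 (difference 2.41 ± 0.24, edgeR adjusted p = 0.000412). The ribose-5-phosphate isomerase genes RPI2 and EMB3119 and the methyl donor gene MTO3 changed by -0.95, -0.68 and -0.94 in SD, against rises of 0.98, 0.67 and 0.53 in LD. The reverse was seen for PEX11E, which had 256 ± 107 CPM at ZT12 and 955 ± 113 at ZT08 in LD, against 3068 ± 775 CPM at ZT12 and 639 ± 172 at ZT08 in SD (difference -4.20 ± 0.43, edgeR adjusted p = 0.000431). Reads of PEX11E and of its opposite-strand partner PP2-A13 cannot be told apart, so these levels are not assigned to PEX11E alone. The paper places PP2-A13 in an SD-induced subgroup with a peak after dusk. TEM2 too was lower at ZT12 in LD and changed by 1.34 in SD (difference -2.76 ± 0.44, edgeR adjusted p = 0.00517). LHCB6 fell in both, by less in LD (-2.03) than in SD (-3.10), with a difference of 1.07 ± 0.14 (edgeR adjusted p = 0.00209). LHCB2.3, in contrast, changed by -6.01 in SD, and its difference was 0.04 ± 0.34. PRR7 was at 0 at ZT12 in all SD libraries and GASA6 likewise, so their differences have no measured size. AT5G15843 at the CO locus had 43.6 ± 5.88 CPM at ZT12 in LD and 66.6 ± 22.3 CPM in SD.

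**Figure D4:**
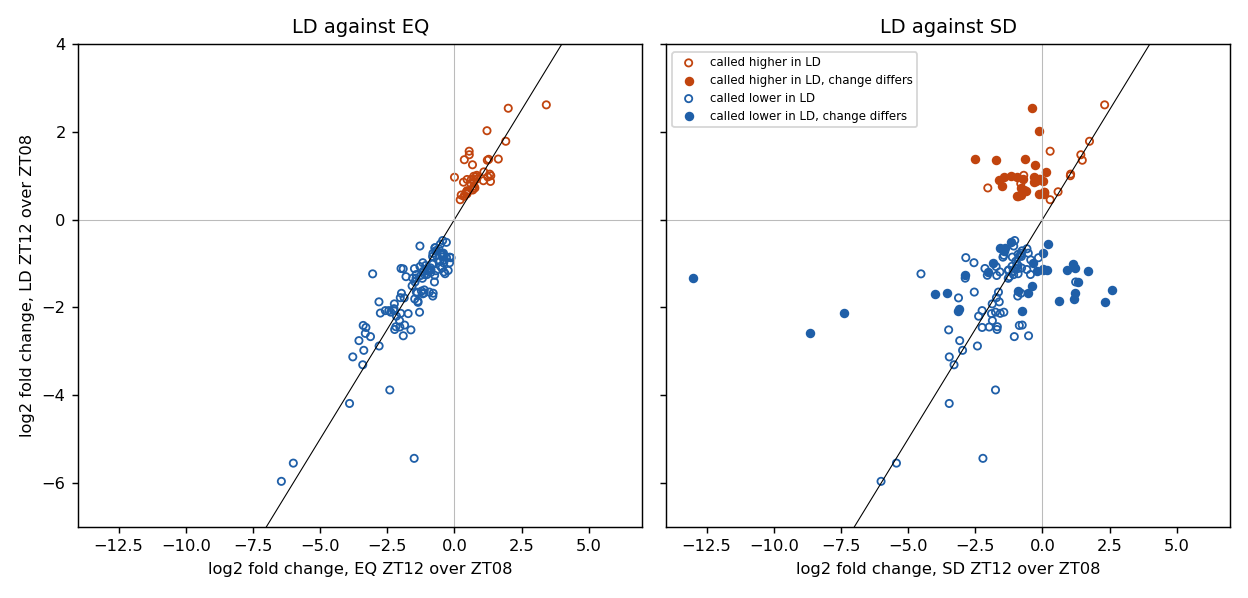
Log2 fold change of ZT12 over ZT08 in LD (vertical) against that in EQ (left panel) and in SD (right panel) for the called genes with counts in all 6 LD libraries, with the line of equal change. Filled points are genes whose change differed at an edgeR adjusted p under 0.05. Most points share their sign with EQ, whereas many genes called higher in LD lie left of 0 in SD.

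Of the 5 most abundant features, AT4G20362 (opposite RABE1b) had 36122, 37589 and 35175 CPM at ZT12, against 37364, 37938 and 35018 CPM at ZT08 (0.00 ± 0.07) and AT1G72600 (opposite GER1) had 20048, 24934 and 17837 CPM at ZT12, against 18301, 16367 and 18470 CPM at ZT08 (0.26 ± 0.13), with overlapping groups in both (edgeR adjusted p = 0.993 and 0.486). The remaining lists held few or no calls. None of the tested members of photoreceptors and PIF growth genes (10), starch synthesis (10), starch breakdown (11), sugar starvation (14), flavonoid synthesis (11), glucosinolates and sulfate reduction (11), cold response (4), nitrate assimilation (6), mitosis (2) or root markers (4) was called by edgeR. The photoreceptor list had a median of -0.66, with PIF7 at 8.52, 11.99 and 9.69 CPM at ZT12, against 21.2, 17.7 and 21.3 CPM at ZT08 (edgeR adjusted p = 0.115). APL1, a large subunit of ADP-glucose pyrophosphorylase in starch synthesis, had 3060, 2727 and 3046 CPM at ZT12, against 4179, 4409.8 and 4208 CPM at ZT08, and did not pass on its own (edgeR adjusted p = 0.0508), although its locus summed with the lncRNA AT5G19221 did (-0.65 ± 0.07, edgeR adjusted p = 0.00616). BAM3, the chloroplast beta-amylase of starch breakdown, had 376, 382 and 387 CPM at ZT12, against 299.5, 292 and 275 CPM at ZT08 (edgeR adjusted p = 0.0835). In the nitrite reductase gene NIR1 the levels were 36.7, 33.1 and 23.5 CPM at ZT12, against 14.3, 15.8 and 18.9 CPM at ZT08 (edgeR adjusted p = 0.137). None of these 4 changes passed the threshold.

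**Figure D5:**
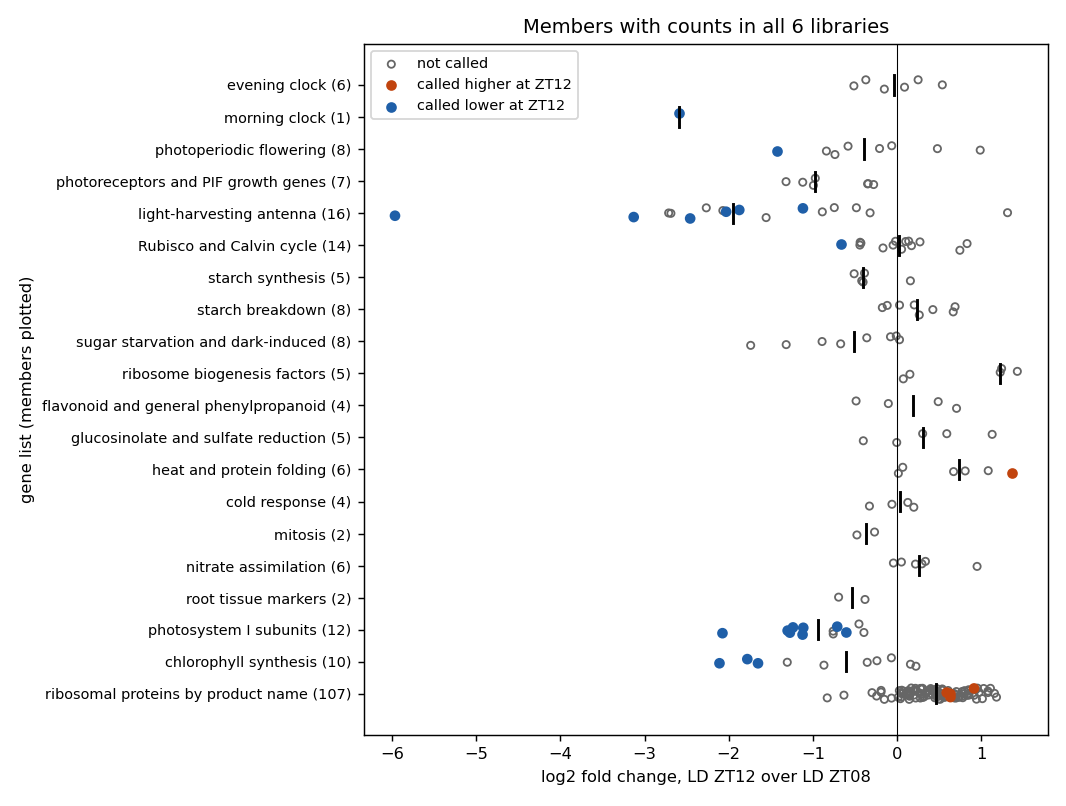
Log2 fold change of LD ZT12 over LD ZT08 for the members of each gene list that had counts in all 6 libraries, with the number of members plotted in brackets, filled points for called genes and a black bar at the median. The antenna and photosystem I lists lie left of 0 (medians -1.95 and -0.94), and the ribosomal protein list lies to the right of it (0.46).

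Promoter motifs were counted in the 250 bases before the start of each gene, on both strands, as a description only. The evening element occurred in 6.15% of the 65 genes called higher and in 1.77% of the 113 called lower, against 2.47% of 8497 genes tested and 2.11% of all 37897 gene windows. The telo box (AAACCCTA), known from promoters of translation genes, occurred in 7.69% of the higher and 0.885% of the lower genes, against 3.57% of those tested. The G-box went the other way, with 4.62% of the higher and 11.5% of the lower genes, against 5.94% of those tested, as did the I-box with 4.62% and 18.6%, against 13.4%. The CCA1-binding site (4.62% and 7.96%, against 6.27%) and the site II element (15.4% and 10.6%, against 13.9%) differed less. The counts behind the higher genes are small, at 4 genes for the evening element and 5 for the telo box.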

How the data were processed

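Counts of reads per gene were deposited by the authors as 1 table of whole numbers for 54 libraries. Per the study's methods the authors trimmed reads with Trimmomatic 0.39, aligned them to TAIR10 plus ERCC sequences with HISAT2 2.1.0 and made the counts with StringTie 2.1.2. The 6 LD libraries held 3434642 to 4114579 counts. Genes passing filterByExpr (minimum count 10) were tested in R 4.3.3 with edgeR 4.0.16, TMM scaling and the quasi-likelihood F test, on the 6 libraries for the LD change and on 12 for each difference from EQ or SD. Adjusted p-values are Benjamini-Hochberg over all genes tested, with a threshold of 0.05. The script was tested on simulated data that varied less between replicates than these data, whose common biological coefficient of variation was 0.639. That test checks the code and cannot give the error rate or power here. Alternatives were library totals, DESeq2 1.42.0 size factors and its Wald test, limma 3.58.1 voom, other filters, fits over more libraries, a replicate block and leaving out each library. Gene names, overlaps and 250-base windows came from the RefSeq annotation and sequence TAIR10.1, which matched all but 285 gene IDs.

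The genes named are the 12 with the largest change in each direction (adjusted p under 0.05, mean of at least 10 CPM, groups that do not overlap), the 5 most abundant, list members that passed with examples of at least 10 CPM that did not, up to 3 in each direction with the largest difference from EQ and from SD, and the opposite-strand gene of each. All other called genes in the text were chosen after their values were seen, for their annotated role, for being listed at 0 in a group, for keeping their call without any 1 library, or for a large change among genes with counts in all 6 libraries (among them GRP7, STH, NF-YB2, RPI2, EMB3119, MTO3, J2, UGT73B2, UGT71B1, PEX11E, AILP1, AT5G16030 and AT1G51400). All members and lists were chosen with earlier results of these data known. The photosystem I, chlorophyll and ribosomal protein lists were added after values had been seen, as were the alternatives of genes with counts in all 6 libraries and of counts summed over genes overlapping by at least 100 bp. Where a group is at 0 throughout, a bound was set from 3 counts over the group, and it describes the listed counts only.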

Additional observations from a re-analysis of the deposited data

Results flagged for a closer look

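The change from ZT08 to ZT12 differed between LD and EQ, by edgeR's test of the difference itself, for 8 genes, of which 4 are given here, each listed at 0 in a whole group. The log2 sizes given for such genes are fitted and are no measure of size. ABCC8 (10.6) had mean levels of 89.3 CPM at ZT12 and 0 at ZT08 in LD, against 70.7 and 45.4 CPM in EQ. NRP1 (10.6) had 79.1 and 0 CPM in LD, against 87.2 and 62.01 CPM in EQ. UNE5 (8.29) had 16.6 and 0 CPM in LD, against 24.95 and 17.4 CPM in EQ. AT1G76700 (-10.4) had 78.2 and 58.5 CPM in LD, against 65.5 and 0 CPM in EQ.

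Between LD and SD the difference of the changes passed for 668 genes, of which 13 are given here beside those in the report. Of the 13, among those counted in every group, LHCB6 differed by 1.07, TEM2 by -2.76, BIP1 by 3.09 and ERF10, an ethylene response factor with 3.30 CPM at ZT12 and 7.12 at ZT08 in LD, against 53.03 and 2.85 CPM in SD, by -5.32. The other 9 were listed at 0 in a whole group. PRR7 (6.04) had 3.17 CPM at ZT12 and 19.5 at ZT08 in LD, against 0 and 14.6 CPM in SD. PRR3 (14.9) had 8.85 and 0 CPM in LD, against 0 and 4.65 CPM in SD. ABCC8 (21.4) and AT3G60910 (20.9) were counted at ZT12 and at 0 at ZT08 in LD, and the reverse in SD, where they had 41.5 and 42.5 CPM at ZT08. AT3G10185 (13.1) had 22.8 and 1.49 CPM in LD, against 0 and 20.9 CPM in SD. NRP1 (11.5) and AtIPCS3 (9.14) were at 0 at ZT08 in LD only among these 4 groups. AT1G07020 (-11.5) and AT3G05932 (-10) were at 0 at ZT08 in SD, and had 60.01 and 31.95 CPM at ZT12 there, with 34.1 and 30.4 CPM at ZT12 in LD.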

How the results depend on the processing

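Among the called genes whose fold change was recomputed under the alternatives (those named by the largest change, by abundance or as passing members of the first lists), none changed direction. Of the genes not called, AT3G05932 ran between -0.38 and 0.13 and AT4G20362 between -0.03 and 0.36. For the other genes in the text only the adjusted p was recomputed, or nothing. For LD ZT12 against ZT08, the count of 178 calls was 172 with DESeq2 size factors, 183 with totals that omit the 10 most abundant genes, 216 with voom, 258 in 1 fit of the LD libraries and 167 loci with summed strands. It was 483 with library totals (395 higher, 88 lower), where the median of all genes moved to 0.42, 113 without a filter, 272 with a minimum count of 50, 340 in 1 fit of all 54 libraries, 638 with DESeq2 (298 higher, 340 lower) and 339 over genes with counts in all 6 libraries, and it ranged between 25 and 186 without 1 library. For the change in LD minus change in EQ from ZT08 to ZT12, the 8 calls became 4 with a minimum count of 50, 3 in 1 fit of all libraries, 104 with DESeq2 and 5 to 16 without 1 library. For the change in LD minus change in SD from ZT08 to ZT12, the 668 calls became 382 without a filter, 1288 with DESeq2 and 426 to 647 without 1 library. With a replicate block, 14 genes were called in LD, all lower, with 4 differences from EQ and 518 from SD. The replicate letters pair nothing that the labels state, and deviations of same-letter libraries correlated at 0.0093, -0.022 and 0.023, so the block is given here only. Genes under about 10 CPM were often at 0, and their changes could not be sized. Zeros were not confined to such genes, as the replicates of LNK2 and PP2-A13 above show.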
